A study of Rattus norvegicus with 9 samples.

Results

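The NMDA receptor subunits were followed here through 7 genes, Grin1, Grin2a, Grin2b, Grin2c, Grin2d, Grin3a and Grin3b, in dendrites of cultured rat hippocampal neurons. All probe sets that name 1 of these genes alone in the platform's gene table were taken, which gave 13 of the 31042 probe sets and 7 of the 14217 genes measured. Read as the median of a gene's probe sets, the 7 genes ranked in the middle to upper range. Their median percentiles over the arrays ran from 43.9 for Grin2d to 75.3 for Grin1. The lowest on a single array was 31.1, for Grin2d in replicate 1 of the 400-dendrite pools. By this reading none was among the highest 10% of genes, although Grin2a was (percentile 90.8) when read from its brightest probe set. Detection was not tested, so these ranks do not show that each mRNA was present. The probe sets of Grin2a stood at opposite ends of the range, at percentiles 12.2 and 93.4, and those of Grin3b at 21.1 and 77.5. No subunit passed the test for a difference between pools of 100, 200 and 400 dendrites, and all 95% confidence intervals of the differences included 0.

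NMDA receptors are glutamate-gated channels that pass calcium and serve as triggers of long-term synaptic plasticity in the hippocampus. Every receptor needs GluN1, which binds the co-agonist glycine or D-serine. GluN2 subunits bind glutamate and set the gating kinetics and the sensitivity to magnesium. GluN3 subunits bind glycine and lower the calcium permeability of the receptors that contain them. In rodent hippocampus GluN2B dominates early in life and GluN2A gains with maturation.

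The samples were 9 pools of dendrites, each on 1 Affymetrix rat expression array, with 3 arrays of 100 dendrites, 3 of 200 and 3 of 400. All came from untreated primary cultures of Sprague-Dawley hippocampus, prepared at embryonic day 19 and grown for 14 days, and the labels give pyramidal neurons as the cell type. Each pool mixed neurites of many cells, cut after the soma had been sucked into a pipette, and the study states that axons could not be separated from dendrites by shape. The labels call the 3 arrays of a pool size biological replicates but do not say whether they came from separate cultures, so the p values measure only the spread between these arrays.

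RNA passed through repeated linear amplification before hybridisation, and the deposited values are log2 signals made with RMA, which subtracts background, equalises the arrays and summarises the probes of a probe set. Array medians ran from 7.46 to 7.53 log2 units, and arrays correlated with each other at 0.678 to 0.877 over all probe sets. Signal depends on how well each probe binds, so a percentile below is a rank of signal and not an amount of RNA. In pooled dendrites, fewer neurites that hold an mRNA and less of it in each neurite cannot be told apart.

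Markers fitted the pyramidal label only in part. The 9 measured pyramidal genes had a median percentile of 80.0, with Neurod2 at 99.9 and Nrgn at 99.4, but Tbr1 stood at 2.44 and Camk2a at 28.8. The 11 interneuron genes had a median of 36.9 with 5 above 50, and among them the genes that make and load GABA were low (Gad1 at 13.7, Gad2 at 15.6, Slc32a1 at 11.6) while Calb2 stood at 86.7 and Sst at 64.6. The 11 astrocyte genes had a median percentile of 45.3 with 5 above 50. Among them Gfap (84.1) and S100b (90.1) were high, while Gjb6 (3.02) and Slc1a2 (17.5) were low. The mean signal of the astrocyte list ran from 7.67 to 8.18 in the 100-dendrite pools. It ran from 6.90 to 8.18 in the 200-dendrite pools and from 7.14 to 8.22 in the 400-dendrite pools. The 11 genes of the oligodendrocyte lineage had a median of 57.2, the 11 microglial genes 38.9 and the 9 fibroblast and mural genes 28.2. The 7 endothelial genes had a median of 52.6 with 4 above 50. Vwf stood at 99.8 and Esam at 98.5, but Tek at 11.2 and Cldn5 at 27.1. Of RNAs that stay in the nucleus, 4 were measured, with a median of 84.5, Meg3 at 97.0 and Xist at 13.6. A list of 11 mRNAs known from dendrites had a median of 83.3 with 8 above 50. Nrgn (99.4) was the highest of them, while Arc (38.5), Psd (34.7) and Camk2a (28.8) were below 50. The part of RNA from other cells or from somata in the subunit signals was not tested.

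By gene value, the median of a gene's probe sets on each array, the order of signal ranks was Grin1 (75.3), Grin2c (71.9), Grin3a (61.5), Grin2b (59.1), Grin3b (56.0), Grin2a (55.1) and Grin2d (43.9). Across the 9 arrays a gene's percentile had an SD of 8.27 to 13.6 points, so that Grin1 and Grin2c, and the 4 genes from Grin3a to Grin2a, lay closer to each other than their own spread. Grin1 ranked highest of the 7 genes on 5 arrays and Grin2c on the other 4. Grin1 and Grin2c were above the median gene on all 9 arrays, Grin3a on 7, Grin2a and Grin2b on 6, Grin3b on 5 and Grin2d on 4.

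**Figure D1:**
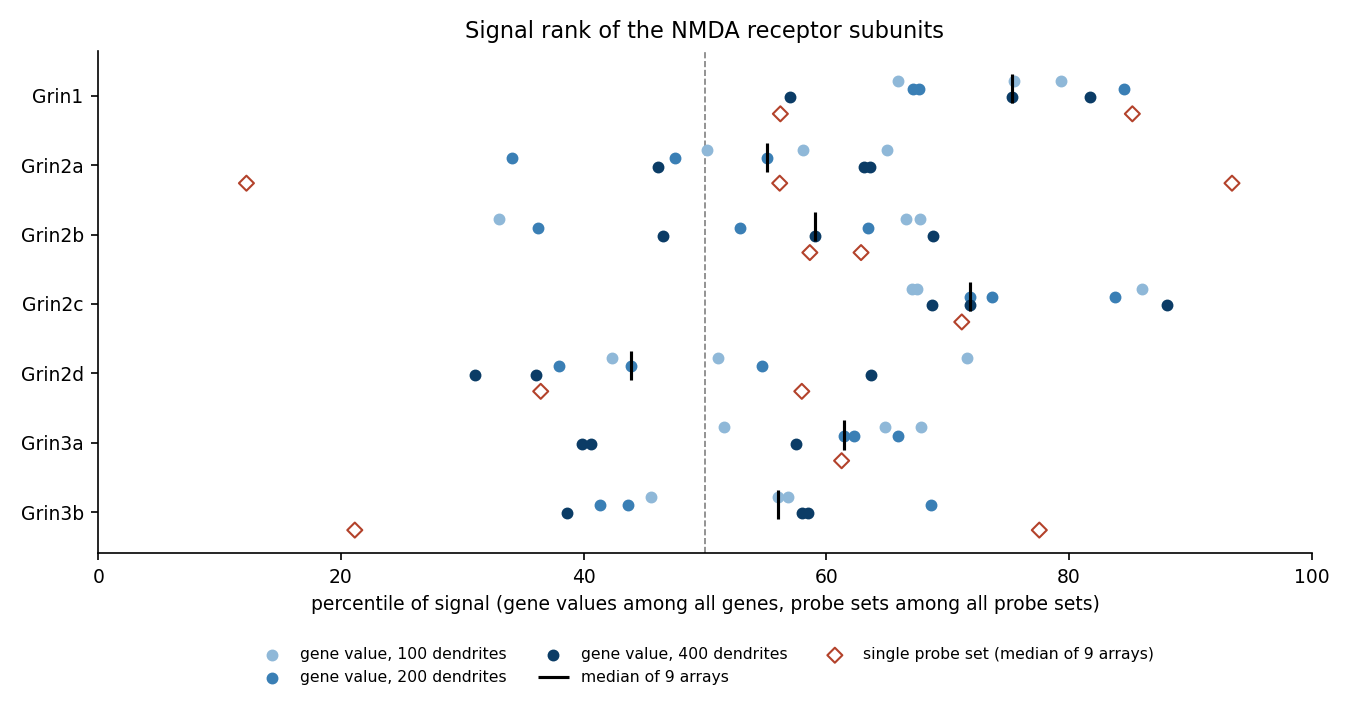
Percentile of signal of each NMDA receptor subunit (x axis, 0 to 100). Filled points are the gene value on each of 9 arrays, shaded by pool size, the black line is their median, and open diamonds are single probe sets. Grin1 and Grin2c lie above the dashed 50 line on every array, and the 3 probe sets of Grin2a spread from 12.2 to 93.4.

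Among single probe sets, 10 of 13 had a median percentile above 50, 1 was in the top 10% and 0 in the top 5%. Platform accessions place 4 of the 13 on expressed sequence tags, single-pass reads of cDNA clones, 5 on GenBank mRNAs and 4 on RefSeq transcripts. The 4 tag-based probe sets had a median percentile of 74.0, against 51.9 for all 15871 tag-based probe sets that name 1 gene alone. With the same restriction, the 5 mRNA-based ones stood at 58.6 against 46.9 for their kind, and the 4 RefSeq-based ones at 46.3 against 50.3. These are descriptions of few probe sets and were not tested.

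Grin1 encodes GluN1, the subunit that every NMDA receptor contains. Probe set 1368572_a_at read 8.31, 7.48 and 7.32 log2 units in the 100-dendrite pools, 7.13, 8.58 and 7.57 in the 200-dendrite pools and 8.70, 7.72 and 8.25 in the 400-dendrite pools. Probe set 1389900_at, built on an expressed sequence tag, read 8.68, 10.01 and 9.02 in the 100-dendrite pools, 9.21, 9.49 and 8.85 in the 200-dendrite pools and 6.99, 9.39 and 9.48 in the 400-dendrite pools. The pool sizes overlapped for both, and in the second 1 array, replicate 1 of the 400-dendrite pools, lay below all others.

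The 2 Grin1 probe sets leaned in opposite directions between the largest and the smallest pools. Probe set 1368572_a_at averaged 8.22 ± 0.49 in the 400-dendrite pools and 7.70 ± 0.53 in the 100-dendrite pools (SD, n = 3 each), a difference of 0.52 log2 units with a 95% confidence interval of -0.54 to 1.58. Probe set 1389900_at averaged 8.62 ± 1.41 in the 400-dendrite pools and 9.24 ± 0.69 in the 100-dendrite pools (SD, n = 3 each), a difference of -0.62 with an interval of -2.02 to 0.79. Without replicate 1 of the 400-dendrite pools the second difference was 0.20, so its sign rested on that array. As a gene value Grin1 differed by -0.05 (-0.93 to 0.84) between 400 and 100 dendrites.

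**Figure D2:**
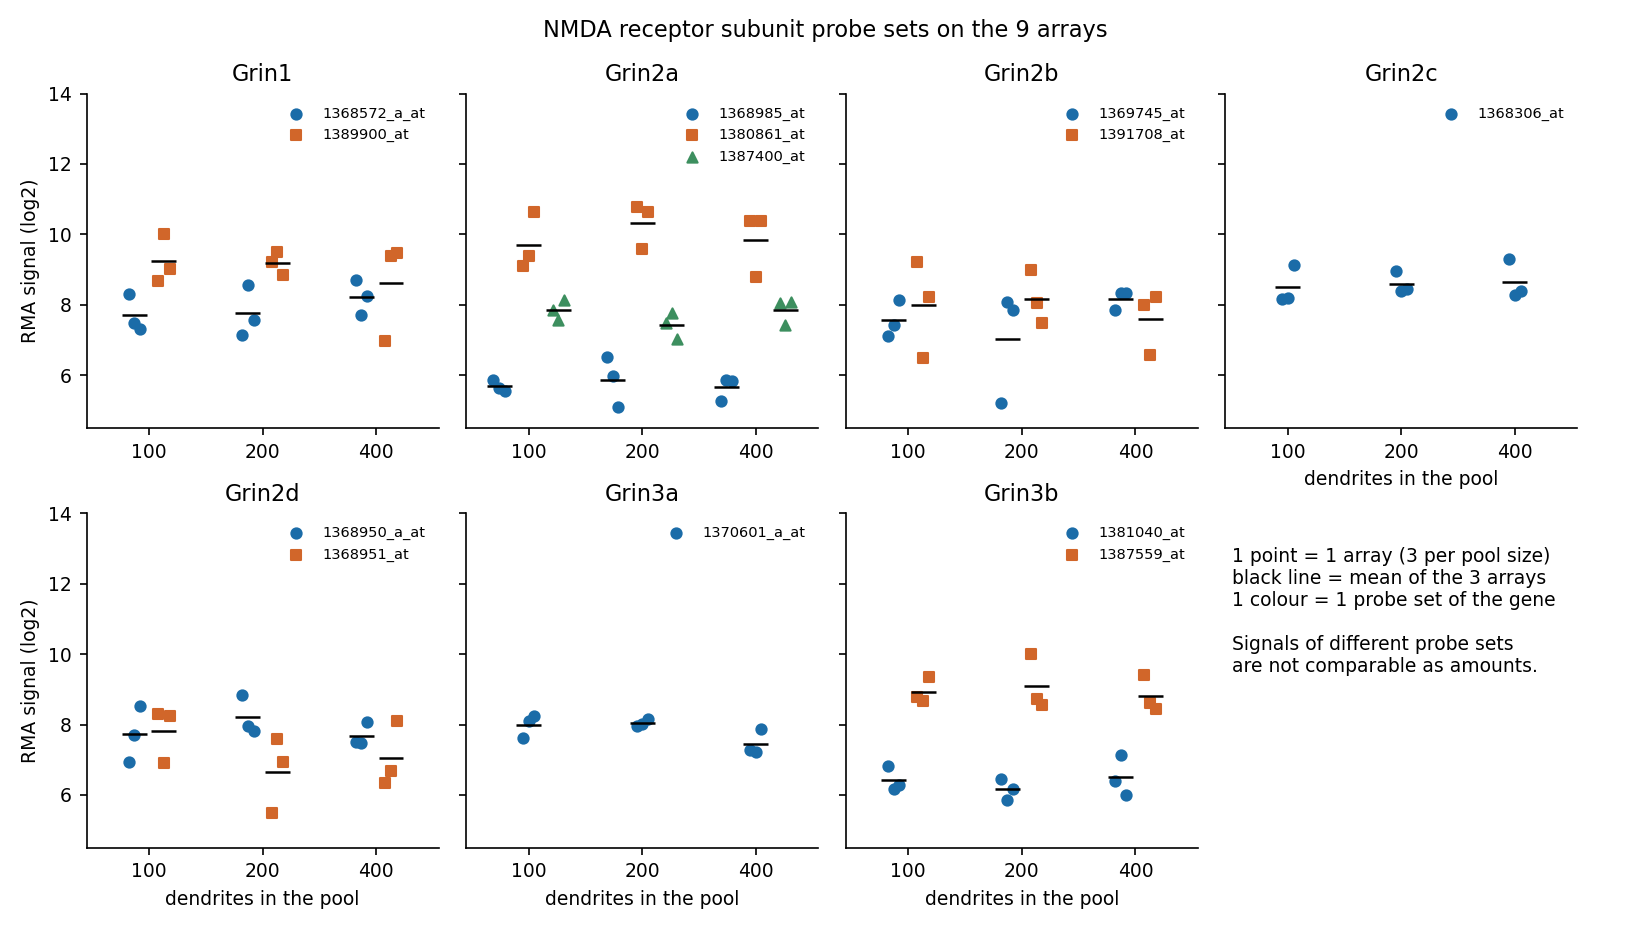
RMA signal (y axis, log2 units) of the 13 probe sets by gene and by the number of dendrites in the pool (x axis). Each point is 1 array, each colour and shape is 1 probe set of the gene, and the black line is the mean of 3 arrays. Within a probe set the pool sizes overlap, except that the 400-dendrite points of Grin3a (7.21 to 7.87) lie below its 200-dendrite points (7.97 to 8.14).

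Grin2a encodes GluN2A, the subunit that gains during maturation. Its tag-based probe set 1380861_at read 9.10, 9.39 and 10.64 in the 100-dendrite pools, 10.79, 9.58 and 10.64 in the 200-dendrite pools and 10.37, 8.80 and 10.38 in the 400-dendrite pools. The second probe set, 1387400_at, read 7.85, 7.58 and 8.13 in the 100-dendrite pools, 7.49, 7.78 and 7.02 in the 200-dendrite pools and 8.06, 7.44 and 8.08 in the 400-dendrite pools. The third, 1368985_at, read 5.88, 5.66 and 5.55 in the 100-dendrite pools, 6.52, 5.99 and 5.09 in the 200-dendrite pools and 5.29, 5.88 and 5.84 in the 400-dendrite pools.

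On every array the 3 Grin2a probe sets kept this order, and none of them separated the pool sizes. Their means lay 4.22 log2 units apart, more than in 89.4% of the 1036 genes with 3 probe sets, for which the median gap was 2.02. The gene value of Grin2a, its median probe set, was therefore 1387400_at on every array, and its rank depended on which probe set was read. By the probe set of highest mean, Grin2a stood at percentile 90.8 among genes, the highest of the 7.

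All Grin2a differences between pool sizes had intervals that included 0. Probe set 1380861_at averaged 10.34 ± 0.66 in the 200-dendrite pools and 9.71 ± 0.82 in the 100-dendrite pools (SD, n = 3 each), a difference of 0.63 with an interval of -0.64 to 1.90. Probe set 1387400_at averaged 7.43 ± 0.38 in the 200-dendrite pools and 7.85 ± 0.28 in the 100-dendrite pools (SD, n = 3 each), a difference of -0.42 (-1.28 to 0.43). For 1368985_at the 400-dendrite pools lay 0.20 below the 200-dendrite pools, written as a difference of -0.20 (-1.15 to 0.75).

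Grin2b encodes GluN2B, the subunit of early hippocampal synapses. Probe set 1369745_at read 7.13, 7.44 and 8.15 in the 100-dendrite pools, 5.20, 8.07 and 7.85 in the 200-dendrite pools and 7.84, 8.33 and 8.33 in the 400-dendrite pools. The tag-based probe set 1391708_at read 9.22, 6.50 and 8.23 in the 100-dendrite pools, 9.00, 8.04 and 7.49 in the 200-dendrite pools and 7.98, 6.59 and 8.22 in the 400-dendrite pools. The first was at its lowest in replicate 1 of the 200-dendrite pools, an array on which the second was at 9.00, its second highest value. The SD over the 9 arrays was 0.98 for the first, above that of 89.9% of all probe sets, and 0.94 for the second.

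Of all member differences between 400 and 200 dendrites, that of Grin2b probe set 1369745_at was the largest. It averaged 8.17 ± 0.28 in the 400-dendrite pools and 7.04 ± 1.60 in the 200-dendrite pools (SD, n = 3 each), a difference of 1.13 with an interval of -0.34 to 2.60. Without replicate 1 of the 200-dendrite pools the difference was 0.21. Against 100 dendrites the same 400-dendrite pools differed by 0.60 (-0.88 to 2.07). Probe set 1391708_at went the other way between 400 and 200 dendrites, with a difference of -0.58 (-2.12 to 0.95), or -0.08 without replicate 2 of the 400-dendrite pools.

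Grin2c encodes GluN2C, best known from cerebellar granule cells, and Grin2d encodes GluN2D, which in the forebrain is found mainly in interneurons. The single Grin2c probe set, 1368306_at, read 8.17, 8.19 and 9.13 in the 100-dendrite pools, 8.97, 8.39 and 8.46 in the 200-dendrite pools and 9.30, 8.27 and 8.39 in the 400-dendrite pools. In each pool size 1 array stood above the other 2, and the groups overlapped. Grin2c averaged 8.65 ± 0.56 in the 400-dendrite pools and 8.50 ± 0.55 in the 100-dendrite pools (SD, n = 3 each), a difference of 0.15 (-0.81 to 1.12).

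Grin2d was the only subunit with a median rank below that of the median gene. Probe set 1368950_a_at read 6.93, 7.70 and 8.53 in the 100-dendrite pools, 8.84, 7.95 and 7.82 in the 200-dendrite pools and 7.49, 7.48 and 8.07 in the 400-dendrite pools. Probe set 1368951_at read 8.29, 6.92 and 8.25 in the 100-dendrite pools, 5.48, 7.58 and 6.93 in the 200-dendrite pools and 6.35, 6.67 and 8.10 in the 400-dendrite pools. On replicate 1 of the 200-dendrite pools the first was at its highest and the second at its lowest.

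The largest member difference between 200 and 100 dendrites belonged to Grin2d probe set 1368951_at. It averaged 6.66 ± 1.07 in the 200-dendrite pools and 7.82 ± 0.78 in the 100-dendrite pools (SD, n = 3 each), a difference of -1.16 (-2.57 to 0.26), or -0.57 without replicate 1 of the 200-dendrite pools. Between 400 and 100 dendrites it differed by -0.78 (-2.20 to 0.64). Probe set 1368950_a_at averaged 7.68 ± 0.34 in the 400-dendrite pools and 8.20 ± 0.55 in the 200-dendrite pools (SD, n = 3 each), a difference of -0.52 (-1.58 to 0.54).

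Grin3a encodes GluN3A, a glycine-binding subunit of juvenile brain. Its single probe set, 1370601_a_at, read 7.62, 8.11 and 8.24 in the 100-dendrite pools, 7.97, 8.02 and 8.14 in the 200-dendrite pools and 7.27, 7.21 and 7.87 in the 400-dendrite pools. All 3 arrays of 400 dendrites lay below all 3 of 200 dendrites, and they overlapped with those of 100. Grin3a averaged 7.45 ± 0.36 in the 400-dendrite pools and 8.04 ± 0.09 in the 200-dendrite pools (SD, n = 3 each), a difference of -0.59 (-1.41 to 0.22). Between 400 and 100 dendrites the difference was -0.54 (-1.36 to 0.27).

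Grin3b encodes GluN3B, best known from motor neurons. Probe set 1387559_at read 8.78, 8.66 and 9.35 in the 100-dendrite pools, 10.01, 8.72 and 8.55 in the 200-dendrite pools and 9.39, 8.60 and 8.43 in the 400-dendrite pools. The tag-based probe set 1381040_at read 6.83, 6.18 and 6.27 in the 100-dendrite pools, 6.46, 5.85 and 6.18 in the 200-dendrite pools and 6.39, 7.13 and 5.99 in the 400-dendrite pools. Here the tag-based probe set was the lower, at a median percentile of 21.1 against 77.5 for the other, and the gap of 2.58 log2 units was larger than in 82.6% of the 3061 genes with 2 probe sets. Between 400 and 200 dendrites 1387559_at differed by -0.29 (-1.34 to 0.77) and 1381040_at by 0.34 (-0.58 to 1.25), or 0.028 without replicate 2 of the 400-dendrite pools.

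Tested in the fit over all 31042 probe sets, none of the 13 passed an adjusted p of 0.05 in any contrast (limma, adjusted p = 0.9998 for all 39 differences). The background share of calls by the same rule was 0.0% in each contrast. At an unadjusted p under 0.05, 0 of 13 were called for 400 against 100 dendrites, where 2.21% of all probe sets were. The counts were 0 of 13 against 2.87% for 200 against 100 dendrites, and 0 of 13 against 2.04% for 400 against 200. The count became 1 for 200 against 100 dendrites (Grin2d 1368951_at) without replicate 2 of the 100- or the 200-dendrite pools, and 1 for 400 against 200 (Grin2b 1369745_at) without replicate 2 of the 200-dendrite pools. By gene value 0 of 7 were called at an adjusted p of 0.05, with a background of 0.0%, and 0 of 7 at an unadjusted p under 0.05, where 2.41%, 3.03% and 2.3% of all genes were called in these 3 contrasts.

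Groups of 3 arrays did not overlap for 0 of 13 probe sets between 400 and 100 dendrites, where 6.17% of all probe sets did not, and for 0 of 13 between 200 and 100 dendrites, where 7.4% did not. Between 400 and 200 dendrites the count was 1 of 13, the probe set of Grin3a, with a background of 6.57%. Over all 3 pool sizes the moderated F test called 0 of 13 at an unadjusted p under 0.05 (background 2.09%), and the slope per doubling of dendrites called 0 of 13 (background 2.46%). Slopes ran from -0.39 log2 units per doubling for Grin2d probe set 1368951_at to 0.30 for Grin2b probe set 1369745_at.

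Between 400 and 100 dendrites 6 of the 13 probe sets were higher and 7 lower, with a median difference of -0.03, beside 0.00 over all probe sets. Between 200 and 100 dendrites 8 were higher and 5 lower (median 0.06, beside -0.001 over all probe sets). Between 400 and 200 dendrites 6 were higher and 7 lower (median -0.20, beside -0.005 over all probe sets). The 2 contrasts against 100 dendrites share their control arrays. The 95% intervals, which are not adjusted for the number of probe sets, reached 0.81 to 1.54 log2 units to either side of a difference. A difference smaller than its own reach could not pass, and the adjustment over all probe sets requires still larger ones. Of the 39 differences, 23 changed sign when some single array was left out.

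**Figure D3:**
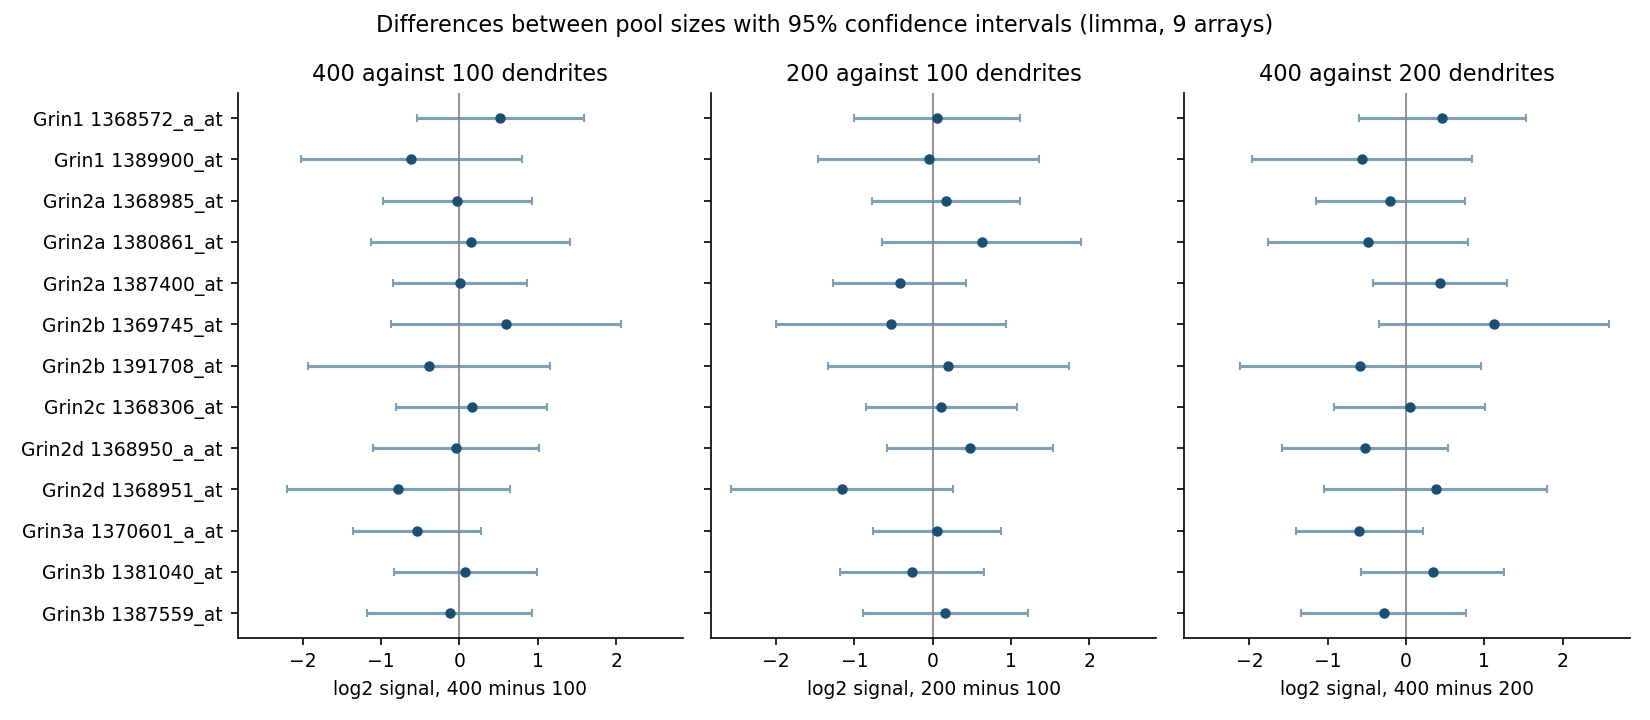
Difference in log2 signal (x axis) of each of the 13 probe sets (rows) for 400 against 100, 200 against 100 and 400 against 200 dendrites. Points are limma estimates over 9 arrays, larger minus smaller pool, and bars are 95% confidence intervals. All 39 intervals cross 0, and the interval end closest to 0 is that of Grin3a 1370601_a_at in the right panel (-1.41 to 0.22).

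No pair of probe sets for the same subunit was correlated from array to array past the threshold. Over 9 arrays, the 7 pairs of probe sets that share a gene had a median Pearson r of -0.16, with 4 below 0 and 3 above. For Grin1 r was -0.47 (rho = -0.23), for Grin2b -0.49 (rho = -0.27), for Grin2d -0.27 (rho = -0.08) and for Grin3b 0.10 (rho = 0.38). The 3 pairs of Grin2a gave -0.16, 0.07 and 0.08 (rho = -0.18, -0.10 and 0.03). Together with the 21 pairs of member genes 28 relations were computed, and after adjustment over these no same-gene pair passed (exact permutation test over pairings, two-sided, adjusted p from 0.620 to 0.947 for r and from 0.875 to 0.948 for rho).

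Leaving out 2 arrays, those farthest from the median of the lower-numbered probe set of a pair, changed several of these coefficients. For Grin2b r became 0.40, for Grin2d 0.93 and for Grin3b 0.80. The Grin2a pairs gave -0.60, -0.46 and -0.05 and Grin1 gave -0.19. The Grin2b sign changed with this choice of 2 arrays, and a choice by the other probe set was not made. Without any 1 array the Grin2b r stayed negative, from -0.63 to -0.25. In Grin2d the negative sign rested on 1 array, since r was 0.26 without replicate 1 of the 200-dendrite pools. Over all 9597 same-gene pairs of probe sets on the arrays the median r was 0.01, with quartiles of -0.27 and 0.29.

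**Figure D4:**
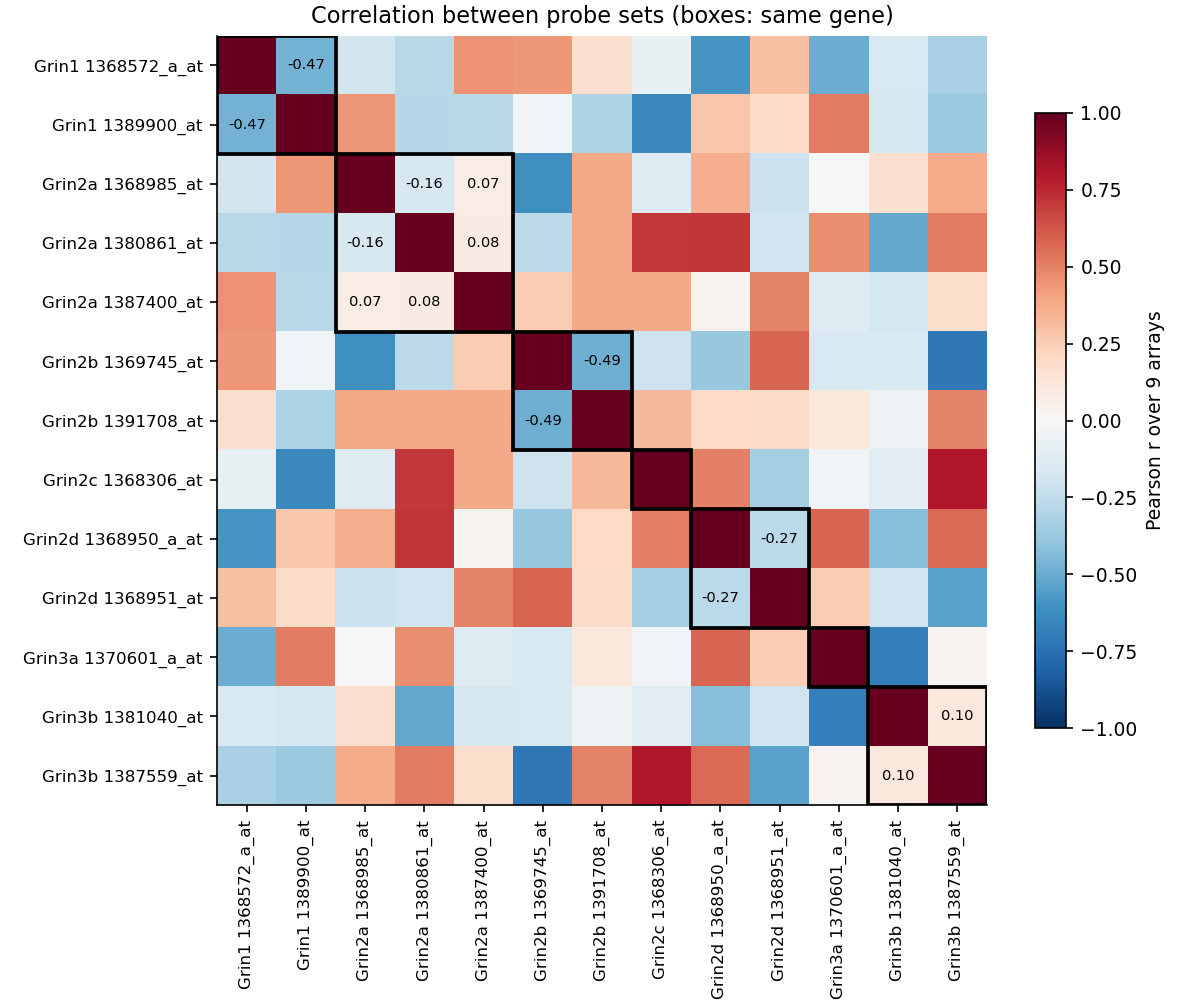
Pearson correlation over 9 arrays (colour scale, -1 to 1) between the signals of the 13 probe sets, ordered by gene. Boxes enclose probe sets of the same gene, with r printed in them, from -0.49 for Grin2b to 0.10 for Grin3b.

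Between the 7 genes, 12 of the 21 pairs had r above 0 and 9 below, with a median of 0.03. The strongest was negative, between Grin1 and Grin2c. Its r was -0.77 (exact permutation p = 0.0169, adjusted p = 0.473) and rho was -0.70 (exact permutation p = 0.0433, adjusted p = 0.303). It stayed at -0.72 without the 2 arrays farthest from the median of Grin1 and at -0.78 in deviations from the pool size means. Grin1 and Grin3b gave r = -0.67 and rho = -0.75, Grin2a and Grin2b r = 0.63 and rho = 0.77, and Grin2b and Grin2d r = 0.65 and rho = 0.73 (exact permutation tests, adjusted p = 0.516 for each r and 0.290 for each rho). None of the 28 relations passed after adjustment, and 1 by r and 4 by rho had an unadjusted exact p under 0.05.

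Among the other 14210 genes, those whose gene value followed a subunit most closely over the 9 arrays were named as a description, being the best of many. Grin1 was followed by Pfdn5 (r = 0.96, rho = 0.97), a prefoldin subunit, and Trim16 (0.92, 0.93). Grin2a was followed by Ucma (0.97, 0.90), a cartilage matrix gene, and the collagen gene Col23a1 (0.97, 0.93). For Grin2b they were Klkb1 (0.93, 0.83), which encodes plasma prekallikrein, and Tsx (0.92, 0.93).

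Grin2c was followed by Cd53 (0.95, 0.87), a leukocyte tetraspanin, and Mybph (0.95, 0.88), a myosin-binding protein. For Grin2d they were C2h1orf56 (0.93, 0.87) and Phldb3 (0.91, 0.87). The nearest to Grin3a were Fat4 (0.96, 0.93), an atypical cadherin, and Mef2d (0.94, 0.83), a transcription factor used by neurons. Those of Grin3b were Pecr (0.96, 0.83), a peroxisomal reductase, and Smarca5 (0.94, 0.93), a chromatin remodelling ATPase. No gene was named for more than 1 subunit. An r above 0.9 was reached by 5 genes with Grin1, 17 with Grin2a, 3 with Grin2b and 31 with Grin2c. It was reached by 2 with Grin2d, 4 with Grin3a and 7 with Grin3b. Such counts were not made for genes outside the subunits, so they have no background to be read against.

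The other ionotropic glutamate receptor subunits, which form AMPA, kainate and delta receptors, were spread more widely. The 10 genes measured of 11 had a median percentile of 42.0 with 4 above 50, beside 59.1 with 6 of 7 above 50 for the NMDA receptor subunits, a difference that was not tested. The kainate receptor gene Grik3 (92.3) and the AMPA receptor gene Gria1 (89.1) ranked above all NMDA receptor gene values, and Grik1 (15.2) below all. None of the 10 passed in any contrast. For Gria2, with the smallest p of the list, the 400-dendrite pools averaged 9.76 ± 1.04 and the 100-dendrite pools 8.89 ± 0.84 (SD, n = 3 each). The difference was 0.87 (-0.45 to 2.19).

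In 5 lists of genes that act on or after the receptor, the highest genes ranked above all 7 subunits and the lowest below them. Of 17 scaffold and anchoring partners, all measured, with a median percentile of 59.7, Dlg4, which encodes the scaffold PSD-95, stood at 98.1 and the neurofilament gene Nefl at 88.1, and Dlg2, which encodes PSD-93, at 19.4. Of 29 kinases and phosphatases 28 were measured, median 58.2, and the CaMKII gene Camk2g stood at 97.7, the calcineurin gene Ppp3ca at 96.5 and Camk2d at 23.8. Of 26 genes of calcium signalling downstream of the receptor 17 were measured, median 50.5, and Calm2, a calmodulin gene, stood at 97.5, Rasgrf1, a Ras exchange factor, at 92.3 and the adenylyl cyclase gene Adcy8 at 5.55. The 13 measured of 16 genes of transport and surface trafficking had a median of 78.7, with Mapt, which encodes tau, at 98.5, the clathrin adaptor gene Ap2m1 at 97.2 and Usp6nl at 15.7. The 15 measured of 16 genes of co-agonist supply and clearance had a median of 60.3, with the neutral amino acid transporter Slc1a5 at 87.9, the serine synthesis enzyme Psat1 at 85.8 and the glycine transporter Slc6a5 at 10.3.

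In none of these 5 lists did a gene pass an adjusted p of 0.05 in any contrast (limma, over 14217 genes, background 0.0%). Between 400 and 100 dendrites 9 of 17 scaffold genes, 19 of 28 kinases and phosphatases, 6 of 17 calcium signalling genes, 7 of 13 trafficking genes and 9 of 15 co-agonist genes were higher, with median differences of 0.16, 0.14, -0.18, 0.10 and 0.13, beside 0.02 over all genes and -0.02 over the 7 subunits. The smallest p values in their lists belonged to Actn4, an actin crosslinker (difference 0.96, interval 0.11 to 1.81), Ap2m1 (0.99, 0.08 to 1.89) and Slc6a5 (0.90, -0.05 to 1.84). The others were Calm2 (0.88, -0.20 to 1.95) and the casein kinase gene Csnk2b (0.89, -0.20 to 1.98). Each had an adjusted p of 0.999 over all genes (limma).

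**Figure D5:**
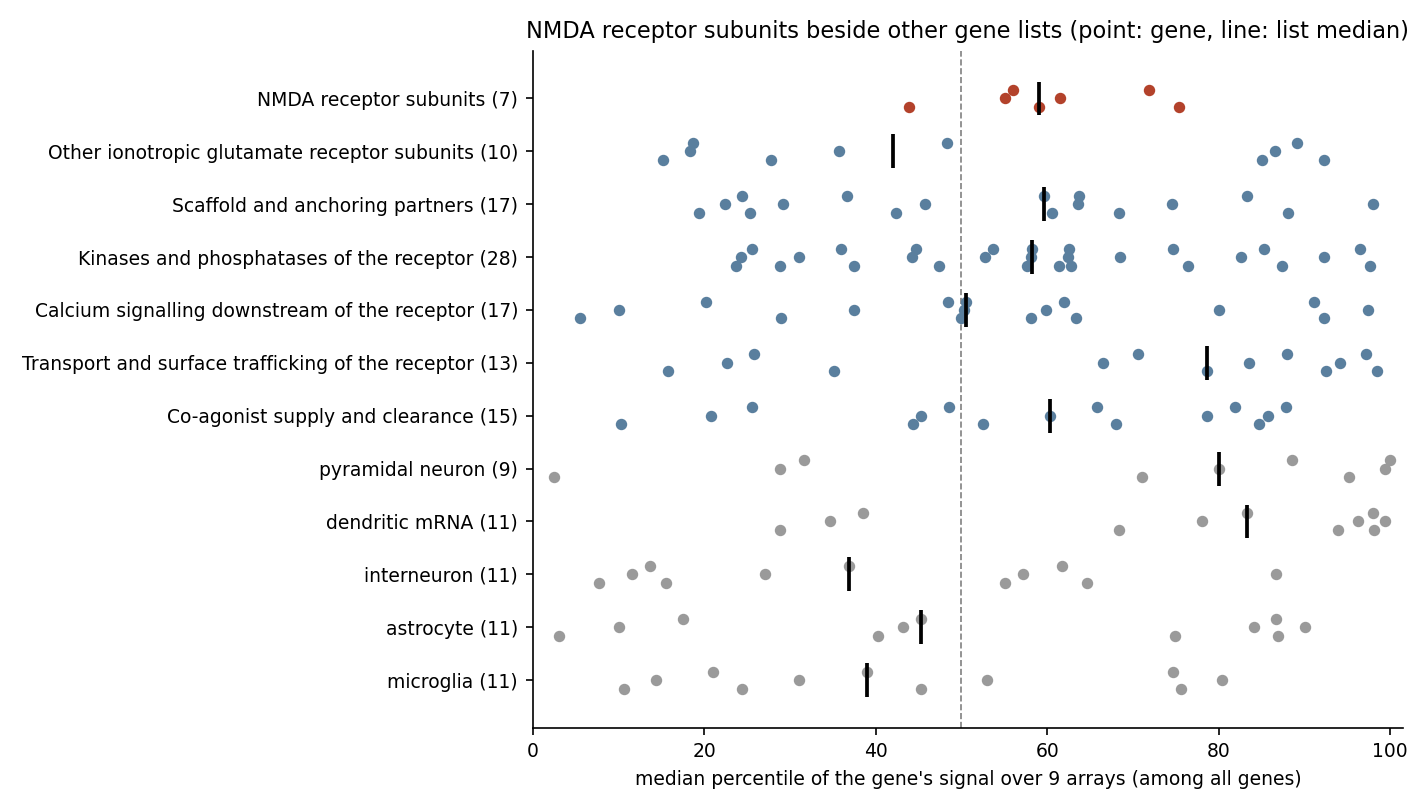
Median percentile of signal over 9 arrays (x axis) of each gene in the NMDA receptor list (top row), in 6 lists of receptor partners and relatives and in 5 marker lists (number of genes in brackets). Points are genes and black lines are list medians. The 7 subunits lie between 43.9 and 75.3, while each of the 6 partner lists reaches below and above that range.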

How the data were processed

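The deposited values are log2 signals that the authors made with RMA 2.0 (per the labels, in the submitters' processing notes), 31099 probe sets on 9 arrays. The median centring and percentile scaling of the study's methods are not in them. The 57 control probe sets were left out and no other filter was set. Platform gene names were updated by Entrez ID for 20758 probe sets. Probe sets that name several genes (436) or none (9780) entered no gene value, and 0 named a subunit beside another gene. Pool sizes were fitted in 1 model of 9 arrays with limma 3.58.1 in R 4.3.3, two-sided, with Benjamini-Hochberg adjustment over all probe sets or genes. Correlations used exact permutation over 362880 pairings. Python 3.11.15, numpy 2.4.6, scipy 1.17.1, pandas 2.3.3 and matplotlib 3.10.9 were used, and the fit was tested on simulated data. The text names every subunit probe set and, per list, the 2 highest and the lowest rank and the smallest p for 400 against 100 dendrites. The gene most alike in pattern was sought by Pearson r, 2 per subunit. The subunits, lists and tests were chosen with earlier results of these data known. The number of arrays limits the precision. Alternatives were another normalization, filter, variance model or gene value, the methods' own test, a replicate block and leaving out each array.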

Additional observations from a re-analysis of the deposited data

Results flagged for a closer look

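In 2 of the 13 probe sets 1 array stood apart from the other 8 by more than Dixon's 95% limit on the gap to the nearest array as a share of the whole range. Chance flags about 1 in 20 groups of normal values, and 10.4% of all probe sets on these arrays were flagged by the same limit. No gene value of the 7 subunits was.

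The first was Grin1 probe set 1389900_at, at 6.99 log2 units in replicate 1 of the 400-dendrite pools, where the nearest array read 8.68 (gap 0.559 of the range). On the same array the other Grin1 probe set, 1368572_a_at, read 8.70, its highest value. The second was Grin2b probe set 1369745_at, at 5.20 in replicate 1 of the 200-dendrite pools, where the nearest array read 7.13 (gap 0.615 of the range). The other Grin2b probe set, 1391708_at, read 9.00 on that array.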

How the results depend on the processing

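Under every alternative run, counts of probe sets past an adjusted p of 0.05 stayed at 0 in all 3 contrasts, the F test and the slope, for the subunits and for all probe sets. With the replicate number as a block the counts were 0 as well, and the numbers did not pair the arrays (correlations of deviations from -0.20 to 0.09, with 1 of 9 arrays closest to its own number). Unadjusted counts over all 31042 probe sets ran from 576 to 1749. By the methods' test they were 800, 1053 and 872 for 400 against 100, 200 against 100 and 400 against 200 dendrites. No correlation passed either. Subunit probe sets dimmer than the median had no value under the filter on signal.

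With array weights the Grin2c difference between 400 and 100 dendrites became -0.16. Leaving out 1 array gave -1.05 to 0.20 for Grin1 1389900_at and -0.17 to 0.47 for Grin2c between 400 and 100 dendrites, and -0.59 to 0.12 for Grin2a 1368985_at and -0.58 to 0.17 for Grin3b 1387559_at between 400 and 200. It gave r of -0.69 to 0.046 (1368985_at with 1380861_at), -0.61 to 0.33 (1368985_at with 1387400_at), -0.10 to 0.49 (1380861_at with 1387400_at), -0.56 to 0.26 (Grin2d) and -0.028 to 0.41 (Grin3b). Without the 2 arrays farthest by the lower-numbered probe set, r was -0.46 and -0.050 for the 2 Grin2a pairs that were above 0. It was 0.40 for Grin2b and 0.93 for Grin2d. With each gene read from its brightest probe set, which shifts the ranks of all genes, Grin2a moved to percentile 90.8, Grin3b to 70.5 and Grin2c to 62.6. The cause of the other changes was not tested. The few arrays limit what these comparisons can show.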
